A study of Rattus norvegicus with 6 samples.

Results

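The genes described here are 7 parts of the route by which cells show fragments of their own proteins on MHC class I: B2m, Tap1, Tap2, Tapbp, Tapbpl, Erap1 and Nlrc5. They were taken by name, with earlier results of these data known, from a table of 21026 gene symbols, and all 7 were found. All 7 also passed the filter on low counts, which left 14273 genes. Polyadenylated RNA had been sequenced from bone marrow mesenchymal stem cells of Rattus norvegicus, the adherent stromal cells of the marrow. The 3 aged libraries were set against 3 young ones. The labels call them biological replicates and give no strain, sex, age in months, passage, treatment or animal, so whether each library came from its own animal is unknown and the spread behind the p-values may be technical. By its title, the study was about mitophagy, endogenous double-stranded DNA and fracture repair in old age.

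Nearly every nucleated cell carries MHC class I, a heavy chain held together by the light chain β2-microglobulin and by a bound peptide. Proteasomes cut cytosolic proteins into peptides, the TAP transporter moves them into the endoplasmic reticulum, aminopeptidases trim them, and tapasin with other chaperones loads them onto the heavy chain. Interferons raise most of these genes together, in part through NLRC5, a transactivator that sits on a promoter module bound by RFX, CREB and NF-Y factors. Mesenchymal stromal cells are known to carry class I at modest levels and little class II unless exposed to interferon gamma.

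The promoters of these genes are known to carry shared sites, and they are shown here because the genes differed below in the direction of their change. RefSeq promoters of build GRCr8 were at hand for 5 of the 7 genes, all but Erap1 and Nlrc5, and the 250 bases before the start given in that table were read; a transcript can also begin elsewhere. Capitals mark the interferon-stimulated response element core GAAANNGAAA, the cyclic AMP response element core TGACG, the CCAAT box that NF-Y binds, and the NF-kappaB forms GGGACTTTCC and GGGATTCCCC, each searched on both strands; the NF-kappaB forms were chosen after the sequences had been seen. The sequences are B2m on the plus strand (chr3:129549080-129549329), Tap1 (chr20:4668544-4668793) and Tapbpl (chr4:159715138-159715387) on the minus strand, and, for comparison, the heavy chain gene RT1-CE16 on the minus strand (chr20:3265444-3265693).
B2m: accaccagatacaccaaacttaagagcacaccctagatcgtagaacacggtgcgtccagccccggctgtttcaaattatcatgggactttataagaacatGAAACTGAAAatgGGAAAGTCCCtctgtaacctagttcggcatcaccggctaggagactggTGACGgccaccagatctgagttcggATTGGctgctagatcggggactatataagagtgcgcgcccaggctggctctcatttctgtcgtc
Tap1: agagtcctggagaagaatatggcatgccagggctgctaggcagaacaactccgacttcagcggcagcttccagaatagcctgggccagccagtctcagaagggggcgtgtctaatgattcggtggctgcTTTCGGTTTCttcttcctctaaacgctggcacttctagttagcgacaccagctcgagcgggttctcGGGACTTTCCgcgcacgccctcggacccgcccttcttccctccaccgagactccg
Tapbpl: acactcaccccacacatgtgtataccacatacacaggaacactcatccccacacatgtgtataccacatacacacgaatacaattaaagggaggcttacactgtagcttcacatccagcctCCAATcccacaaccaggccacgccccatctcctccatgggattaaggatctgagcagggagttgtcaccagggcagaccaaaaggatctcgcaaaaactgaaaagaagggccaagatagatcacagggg
RT1-CE16: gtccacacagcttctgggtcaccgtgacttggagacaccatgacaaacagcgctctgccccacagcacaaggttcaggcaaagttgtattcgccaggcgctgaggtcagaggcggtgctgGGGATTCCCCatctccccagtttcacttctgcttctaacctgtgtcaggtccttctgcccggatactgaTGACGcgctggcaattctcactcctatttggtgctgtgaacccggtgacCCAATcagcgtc

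The interferon-stimulated core was found in 4 of the 5 promoters, against 3.29% of all 27457 promoters of the same length. It was in 3 of the 33 promoters with a class I RT1 symbol, RT1-CE16 not among them, and in 2 of 5 immunoproteasome promoters. Looser forms of the element were not searched, so a promoter without this core, RT1-CE16 included, may still hold one. The core read GAAACTGAAA at -150 to -141 in B2m, counting back from the start, and TTTCGGTTTC at -121 to -112 in Tap1. Tap2 held GAAAGCGAAA at -41 to -32. In Tapbp 2 overlapping matches, GAAAATGAAA at -26 to -17 and GAAAGTGAAA at -20 to -11, lay near the start. The window of Tapbpl held none of these letters, only a CCAAT at -129 to -125. B2m alone of the 5 held TGACG, at -89 to -85, which was in 18.96% of all promoters, and a CCAAT box on the other strand at -64 to -60. CCAAT was in 34.3% of all promoters. The form GGGACTTTCC was chosen because Tap1 and, on the other strand, B2m share it, so its presence in both was fixed by that choice. It was in 0.0765% of all promoters. The form GGGATTCCCC was likewise chosen because RT1-CE16 and RT1-A3 share it. It was in 8 of the 33 promoters with a class I RT1 symbol, both of these included, and in 0.0692% of all. A match is a string of letters and not a shown binding site.

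Totals ran from 34638874 to 38921547 counts in the aged libraries and from 40180480 to 42479626 in the young ones, so that 3 counts, the limit that a count of 0 allows, stand for 0.0688 to 0.0769 CPM in aged and 0.0791 to 0.0840 CPM in young libraries. CPM stands here for counts scaled to a common library size with TMM factors. Mitochondria-encoded genes took 4.25% to 4.46% of counts in aged libraries and 1.07% to 1.36% in young ones; their part in the results below was not tested. The aged and young transcriptomes differed almost throughout: 86.4% of tested genes were called at an edgeR adjusted p under 0.05, 44.7% higher and 41.8% lower in aged cells. In 45.2% of genes every aged library lay above every young one, and in 42.4% below. A call by itself therefore sets no gene apart from the rest. Young replicate 2 stood apart from its group: its counts differed from those of young replicates 1 and 3 with chi-square values of 12.02 and 9.77 per degree of freedom, against 3.19 to 3.72 for the other pairs of replicates. Results are given without it where that matters. With libraries scaled by their totals only, without TMM, log2 changes came out higher by a median of 0.34, so falls smaller than that may change sign with the scaling.

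Of the 7 genes, 3 were higher in aged cells (B2m, Erap1 and Nlrc5), 3 were lower (Tap1, Tap2 and Tapbpl), and Tapbp was not called. Their median log2 change was -0.08, against 0.05 over all tested genes. The lower direction of Tap1 and Tap2 did not hold when libraries were scaled by size alone, and the other 4 calls held. The shares of all genes called were 44.7% and 41.8% in these directions, as given above.

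**Figure D1:**
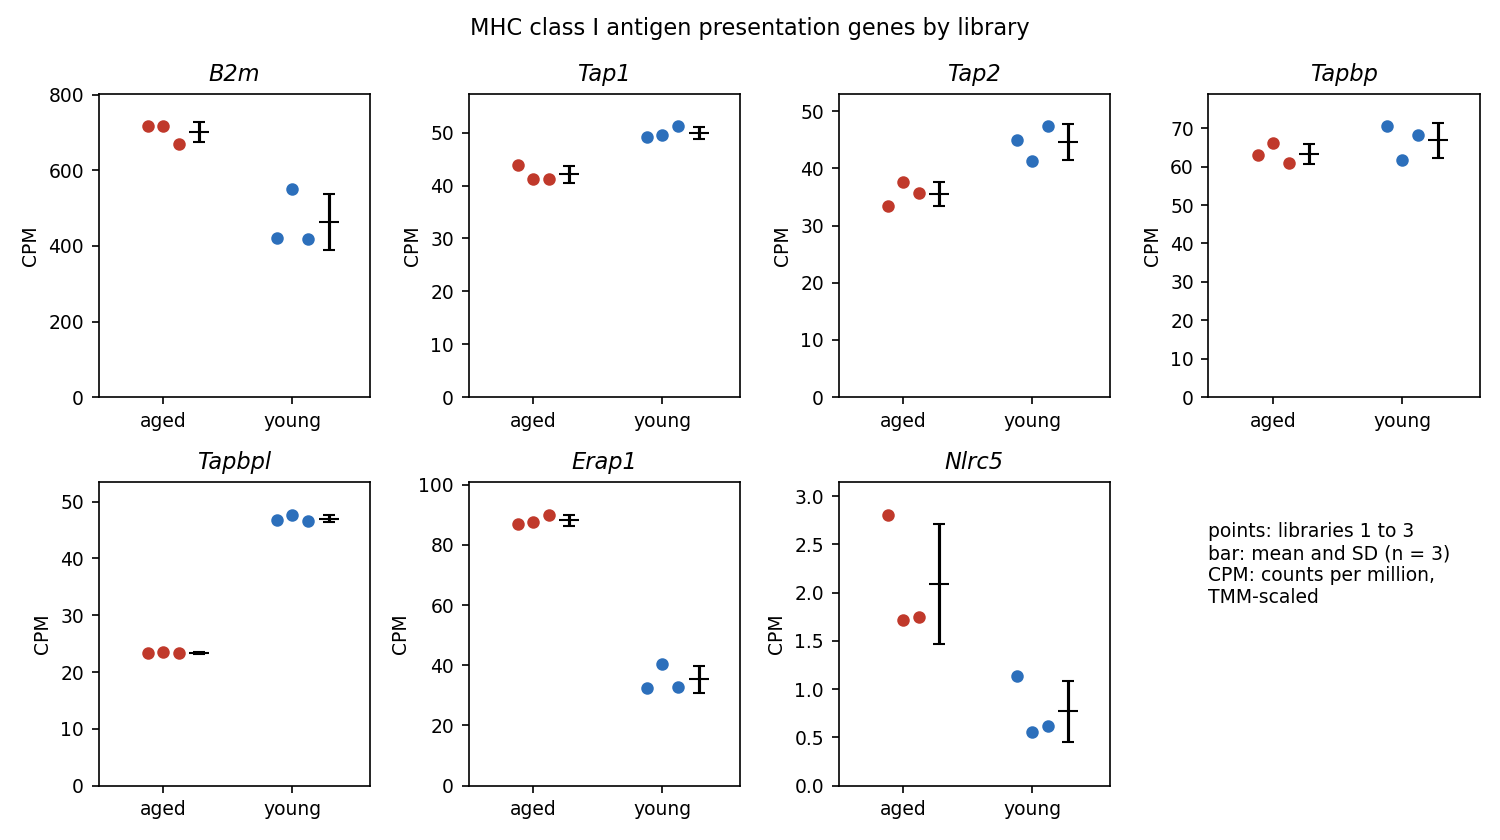
CPM (TMM-scaled, linear axis from 0) of each of the 7 genes in the 3 aged and 3 young libraries, with mean and SD (n = 3). Aged libraries lie above all young ones for B2m, Erap1 and Nlrc5 and below them for Tap1, Tap2 and Tapbpl, with the groups of Tapbp overlapping; scaled by library size alone, Tap1 and Tap2 change sign.

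B2m, the light chain that every class I molecule needs, measured 716, 717 and 669.7 CPM in the aged libraries, against 421, 549 and 418 CPM in the young ones. All aged libraries were above all young ones, and young replicate 2 was the highest of its group. The means were 701 ± 26.9 and 463 ± 74.8 CPM (SD, n = 3 each). The log2 change was 0.60 ± 0.07 (SE), or 1.51-fold (edgeR adjusted p = 5.9e-07), and without young replicate 2 it was 0.73. That library also had the highest share of mitochondria-encoded counts among the young ones, 1.36%.

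Nlrc5, the class I transactivator, was scarce. It had 2.81, 1.72 and 1.74 CPM in aged libraries, against 1.14, 0.554 and 0.616 CPM in young ones, from 116, 75 and 68 counts against 41, 21 and 22. The groups did not overlap, although aged replicate 1 and young replicate 1 were each well above the rest of their group. The change was 2.72-fold, 1.44 ± 0.33 on the log2 scale (SE, edgeR adjusted p = 6.3e-04), with a 95% interval from 0.74 to 2.14. Leaving out single libraries moved it between 1.17 and 1.81.

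The peptide transporter is made of the proteins of Tap1 and Tap2, ATP-driven half-transporters whose genes lie in the MHC region of rat chromosome 20. In the rat, allelic forms of TAP2 are known to differ in which peptides they carry. Tap1 had 43.9, 41.2 and 41.3 CPM in aged libraries, against 49.1, 49.5 and 51.2 CPM in young ones. Tap2 had 33.4, 37.6 and 35.7 CPM in aged libraries, against 45.0, 41.2 and 47.4 CPM in young ones. Aged libraries were below all young ones for both genes, by small amounts. Tap1 was 1.19-fold lower, a log2 change of -0.25 ± 0.05 (SE, edgeR adjusted p = 4.8e-04), and Tap2 was 1.252-fold lower, -0.32 ± 0.07 (SE, edgeR adjusted p = 2.2e-04). Scaled by library size alone these became 0.09 (edgeR adjusted p = 0.13) and 0.012 (edgeR adjusted p = 0.87), neither called. The ratio of Tap1 to Tap2 counts within a library, which no scaling touches, differed by 0.08 on the log2 scale between aged and young, with overlapping groups (exact two-sided permutation test, p = 0.5).

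Tapbp encodes tapasin, which bridges TAP and the heavy chain and edits the bound peptide. It had 63.1, 66.0 and 60.9 CPM in aged libraries, against 70.6, 61.8 and 68.3 CPM in young ones. The groups overlapped. Its log2 change of -0.08 had a 95% interval from -0.20 to 0.04 (edgeR adjusted p = 0.20). The call depended on the setting: without young replicate 2 it was lower at -0.14 (edgeR adjusted p = 0.0084), and scaled by library size alone it was higher at 0.26 (edgeR adjusted p = 4.1e-04).

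Tapbpl encodes TAPBPR, a tapasin relative that edits peptides outside the TAP complex. It was at 23.3, 23.5 and 23.3 CPM in aged libraries, against 46.7, 47.7 and 46.6 CPM in young ones. Libraries within a group lay close together and the groups were far apart. The fall was 2.01-fold, a log2 change of -1.01 ± 0.06 (SE, edgeR adjusted p = 2.1e-11). Of all tested genes, 21.0% had a lower log2 change than Tapbpl. The ratio of Tapbp to Tapbpl counts was 1.91-fold higher in aged libraries, with no overlap. Most single genes had no overlap either, 45.2% with aged above and 42.4% with aged below. For this ratio an exact two-sided permutation test gave p = 0.1, the smallest that 3 against 3 allows, and 0.12 after adjustment over the 13 ratios examined.

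Erap1 encodes the aminopeptidase of the endoplasmic reticulum that trims peptides to the length class I holds. It had 86.8, 87.6 and 90.1 CPM in aged libraries, against 32.5, 40.6 and 32.9 CPM in young ones. Every aged library was above every young one, and young replicate 2 was again the highest of its group. The rise was 2.49-fold, a log2 change of 1.32 ± 0.07 (SE, edgeR adjusted p = 6.0e-12), and 1.42 without young replicate 2.

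**Figure D2:**
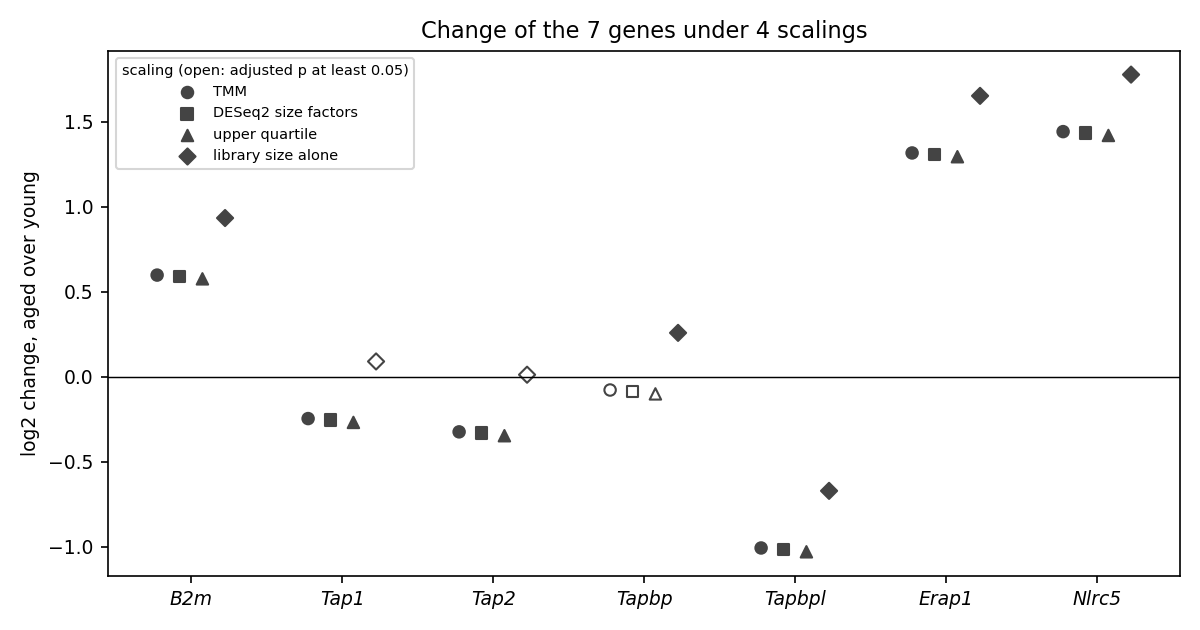
Log2 change (aged over young, edgeR) of each of the 7 genes under 4 ways of scaling the libraries, with open symbols where the adjusted p was at least 0.05. B2m, Erap1 and Nlrc5 stay above 0 and Tapbpl below 0 under all 4, whereas Tap1, Tap2 and Tapbp lie below 0 under 3 of them and above 0 when scaled by library size alone.

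By closeness of their log2 CPM profiles, each centred on its own mean over the 6 libraries, the nearest of 11613 genes to B2m were Lgalsl and Rraga, with distances of 0.0842 and 0.106. Those to Tap1 were Prkab1 and Phf2, to Tap2 Mief2 and Cdk2, and to Tapbp Rps19bp1 and Osbpl7. Tapbpl lay closest to Rps15a and Mrfap1 at distances of 0.0215 and 0.0238, and Erap1 closest to Dlg1 and Adnp. For Nlrc5 the nearest, Hoxa4 and Eno4, were farther away at 0.325 and 0.419. No gene of the class I lists was among these 14 neighbours, and since most genes differ between the groups, nearness over 6 libraries is a weak description.

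Most of the heavy chains that pair with B2m were lower in aged cells. The rat has many near-identical heavy chain genes in its RT1 complex, so the split of reads among their rows is uncertain, and how reads that fit several copies were counted is not given in the sources used here. RT1 haplotypes also differ between rat strains, and the labels name no strain. An effect of age and a difference in haplotype therefore cannot be told apart in these rows. The same limit holds for other genes of the complex, such as Tap1, Tap2 and Psmb9. Of 31 heavy chain rows in the file, 22 were tested, and 15 were lower, 1 higher and 6 not called in aged cells. The median log2 change of these rows was -1.02. Over all tested genes, 41.8% were lower and 44.7% higher. Of the 15, 12 fell at least 2-fold and 5 at least 8-fold. For comparison, 21.0% of all tested genes had a lower log2 change than Tapbpl, which fell 2.01-fold. The share of all genes that fell at least 8-fold was not computed.

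**Figure D3:**
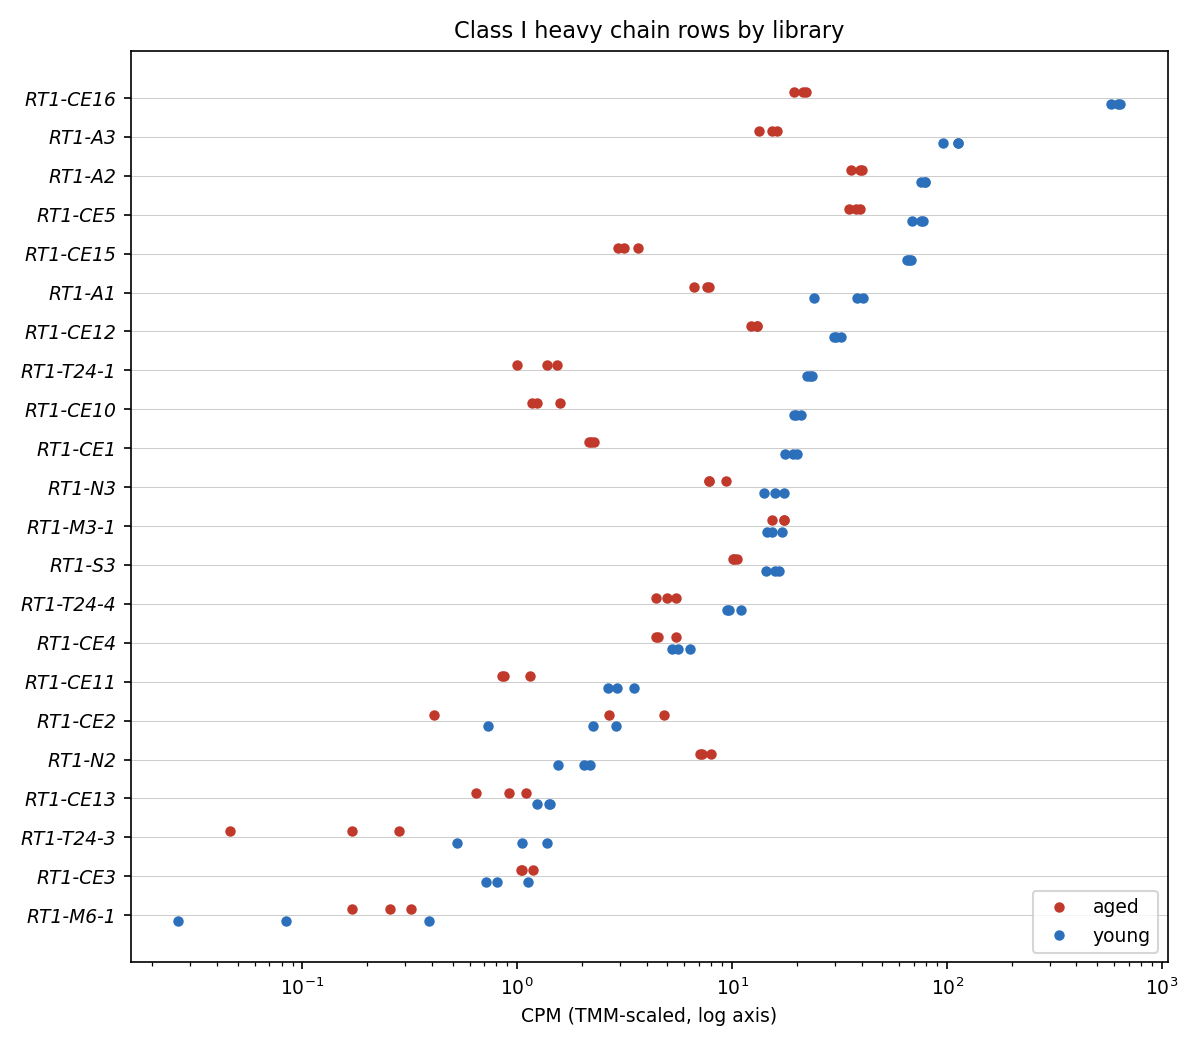
CPM (TMM-scaled, log axis) of the 22 tested class I heavy chain rows in each of the 3 aged and 3 young libraries, ordered by the young mean. RT1-CE16 at the top falls furthest, 29.3-fold, and RT1-N2 is the row that was called higher in aged cells.

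RT1-CE16, of the C/E group of class I genes, had 21.4, 19.4 and 22.1 CPM in aged libraries, against 640, 578 and 623 CPM in young ones. It was 29.3-fold lower (log2 change -4.87 ± 0.05, SE, edgeR adjusted p = 8.6e-21). RT1-CE15, of the same group, was 20.5-fold lower. RT1-A1, RT1-A2 and RT1-A3, of the classical A region, were 4.65-fold, 2.03-fold and 7.16-fold lower, and RT1-T24-1 was 17.5-fold lower. RT1-N2 was 3.84-fold higher, at 7.05, 7.27 and 7.95 CPM in aged libraries and 2.05, 2.19 and 1.54 CPM in young ones. RT1-M3-1, the counterpart of mouse H2-M3, which presents bacterial peptides in the mouse, was not called at 16.7 ± 1.19 and 15.7 ± 1.29 CPM in aged and young libraries (SD, n = 3 each, edgeR adjusted p = 0.32), but it was higher by 0.43 on the log2 scale when scaled by library size alone (edgeR adjusted p = 2.5e-04).

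Because reads can be split among copies, the rows were also summed. A sum mends only reads split among these rows. It does not restore discarded reads or those of loci with placeholder symbols, and it leaves a difference in haplotype in place. All 31 rows together gave 197, 192 and 207 CPM in aged libraries, against 1189, 1067 and 1160 CPM in young ones, a 5.73-fold lower mean. RT1-CE16 made up 53.9% of the young sum and 10.6% of the aged one. Without that row, a choice made after seeing the data, the sum was 178 ± 6.47 CPM in aged and 525 ± 31.2 CPM in young libraries (SD, n = 3 each), 2.96-fold lower. By region, the C/E rows summed to 88.4 ± 5.20 CPM in aged libraries, against 836 ± 40.8 CPM in young ones, and the A rows to 60.6 ± 2.18 CPM, against 219 ± 20.4 CPM (SD, n = 3 each). The M rows summed to 17.1 ± 1.23 CPM in aged libraries, against 15.9 ± 1.18 CPM in young ones.

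Light chain and summed heavy chains differed in opposite directions. Within each library the log2 ratio of summed heavy chain counts to B2m counts was -1.86, -1.90 and -1.69 in aged libraries, against 1.497, 0.958 and 1.472 in young ones. The ratio was 8.74-fold lower in aged libraries, and 4.51-fold lower without RT1-CE16. Neither value depends on the scaling, but both keep the limits of the heavy chain rows, which are shared or lost reads and an unknown haplotype. Of the 6 other members, Tap1, Tap2, Tapbp and Tapbpl lost ground to B2m, with ratios 1.81-fold, 1.91-fold, 1.61-fold and 3.07-fold lower, and that of Erap1 to B2m was 1.64-fold higher. Groups did not overlap in these 7 ratios, each with exact permutation p = 0.1, the smallest the design allows, and 0.12 after adjustment over 13 ratios. Among single genes, 45.2% had all aged libraries above all young ones and 42.4% below. A lack of overlap by itself therefore sets none of these ratios apart, and the share over ratios of other genes was not computed. The ratio of Nlrc5 to B2m, 1.80-fold higher, had overlapping groups (exact permutation p = 0.3). Without young replicate 2, log2 ratios to B2m, aged minus young, kept their direction. That of the heavy chain sum was -3.30 (-3.13 with it) and that of Nlrc5 0.53 (0.85 with it). For Tap2 and Tapbp they were -1.12 and -0.87, against -0.93 and -0.69 with it.

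**Figure D4:**
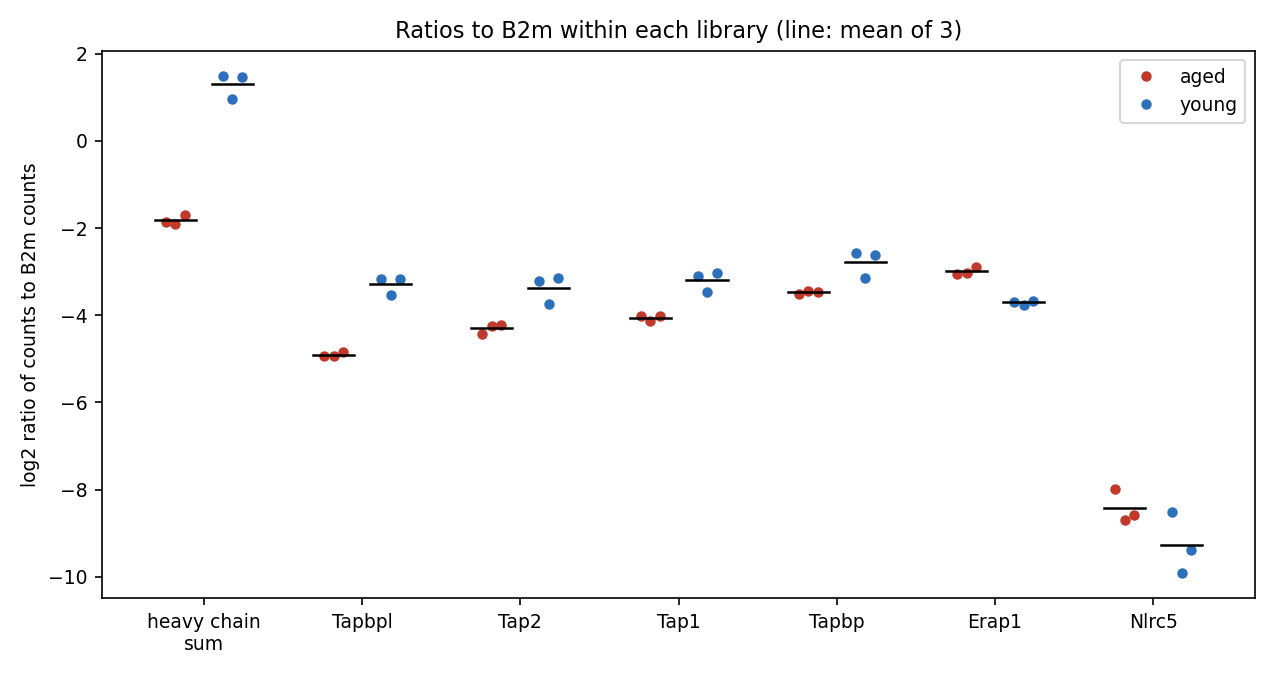
Log2 ratio of counts to B2m counts within each library, for the summed heavy chain rows and for the 6 other members, with 3 aged and 3 young libraries each and the mean as a line. The heavy chain sum lies near -1.82 in aged libraries and 1.31 in young ones; only Nlrc5 shows overlapping groups.

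Of 4 other chains that pair with B2m, 2 were lower and none higher in aged cells, with a median log2 change of -0.59. The shares over all tested genes were 41.8% and 44.7%. Fcgrt, which encodes the neonatal Fc receptor chain that recycles IgG, was 2.23-fold lower at 129 ± 3.88 CPM in aged and 289 ± 5.90 CPM in young libraries (SD, n = 3 each, edgeR adjusted p = 5.6e-15). Hfe, the iron regulator, was 2.54-fold lower. Cd1d1, a lipid-presenting chain, had 7.07 and 7.21 CPM and Mr1, which presents vitamin metabolites, had 4.09 and 4.02 CPM on average in aged and young libraries, and neither was called. Scaled by library size alone, Cd1d1 was higher by 0.31 on the log2 scale (edgeR adjusted p = 0.018).

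Of all tested genes 41.8% were lower in aged cells, and all 5 immunoproteasome genes were, with a median log2 change of -1.82. These encode the inducible catalytic subunits and the PA28 activator, which shift cleavage toward class I peptides. Psmb9, whose gene stands back to back with Tap1, had 1.86, 1.49 and 2.02 CPM in aged libraries, against 12.02, 10.1 and 11.3 CPM in young ones, 6.22-fold lower (edgeR adjusted p = 1.5e-11). Psme1 and Psme2, which encode PA28, were 3.52-fold and 3.74-fold lower, Psmb10 was 2.23-fold lower and Psmb8 1.44-fold. Psmb8 was no longer called when scaled by library size alone (log2 change -0.19, edgeR adjusted p = 0.074). The standard subunits they replace were also lower, Psmb5 by 1.87-fold, Psmb6 by 1.58-fold and Psmb7 by 1.57-fold, with a median log2 change of -0.66. Within libraries, the ratio of Psmb9 to Psmb6 was 3.93-fold lower and that of Psmb10 to Psmb7 1.42-fold lower in aged cells. That of Psmb8 to Psmb5 was 1.30-fold higher. Each was without overlap (exact permutation p = 0.1, the smallest possible, and 0.12 adjusted). Most single genes were without overlap too, 45.2% with aged above and 42.4% with aged below.

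Of the 6 chaperones and glycan enzymes that fold heavy chains, 5 were higher and 1 lower, with a median log2 change of 1.17. The shares over all tested genes were 44.7% and 41.8%. Hspa5, the general chaperone BiP, was 10.6-fold higher at 5386 ± 85.7 CPM in aged and 506 ± 9.13 CPM in young libraries (SD, n = 3 each, edgeR adjusted p = 2.1e-22). Canx, encoding calnexin, which holds new heavy chains, was 4.49-fold higher. Pdia3 and Calr, encoding ERp57 and calreticulin of the peptide-loading complex, were 2.56-fold and 1.99-fold higher. Ganab, a glucosidase subunit that prepares glycans for these chaperones, was 1.69-fold lower. These chaperones serve many proteins besides class I.

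Peptidases moved both ways, as did all tested genes (44.7% higher and 41.8% lower). Of 7 peptidases, 4 were higher and 3 lower, and 1 lower when scaled by library size alone. Their median log2 change was 0.15. Lnpep, encoding an aminopeptidase of endosomes related to ERAP1, was 5.37-fold higher and Tpp2, a large cytosolic peptidase, 5.20-fold higher. Thop1, which destroys peptides in the cytosol, was 1.44-fold lower. Lap3, a cytosolic leucine aminopeptidase, was 1.27-fold lower, but its log2 change was -0.0062 when scaled by library size alone (edgeR adjusted p = 0.91).

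Among the 8 factors of the promoter module that NLRC5 uses, 5 were higher and 3 lower in aged cells, with a median log2 change of 0.41. The shares over all tested genes were 44.7% and 41.8%. Rfx5, the DNA-binding RFX subunit, had 14.0, 11.8 and 11.3 CPM in aged libraries, against 29.9, 27.7 and 27.6 CPM in young ones, 2.30-fold lower (edgeR adjusted p = 5.3e-10). Nfyb, an NF-Y subunit, was 1.86-fold lower. Creb1 was 3.25-fold and its relative Atf1 1.49-fold higher.

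Interferon signalling genes were lower in 8 and higher in 3 of 14, with a median log2 change of -0.36. The shares over all tested genes were 41.8% and 44.7%. Scaled by library size alone, the median became -0.019, with 6 higher and 6 lower. In that setting 7704 of all 14273 tested genes were higher and 4654 lower. Socs3, a feedback inhibitor, was 3.97-fold lower, while the kinase genes Jak1 and Jak2 were 2.93-fold and 1.90-fold higher. Irf1, an activator of class I and TAP genes, was not called (16.9 ± 0.958 and 18.8 ± 1.08 CPM in aged and young libraries, SD, n = 3 each, edgeR adjusted p = 0.086), although scaled by library size alone it was higher by 0.18 on the log2 scale (edgeR adjusted p = 0.043).

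Of 9 genes listed for class I turnover and silencing, 4 were higher and 4 lower, near the shares of all tested genes (44.7% and 41.8%). The list median log2 change was -0.08, or 0.25 when scaled by library size alone. Suz12 and Ezh2, subunits of the Polycomb complex that silences class I genes in some tumours, went in opposite directions, 6.79-fold higher and 2.29-fold lower. Marchf9, a ubiquitin ligase that removes class I from the surface, was 2.53-fold higher. Its relative Marchf4 was 9.72-fold lower, from 9 counts in all aged libraries and 80 in all young ones.

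**Figure D5:**
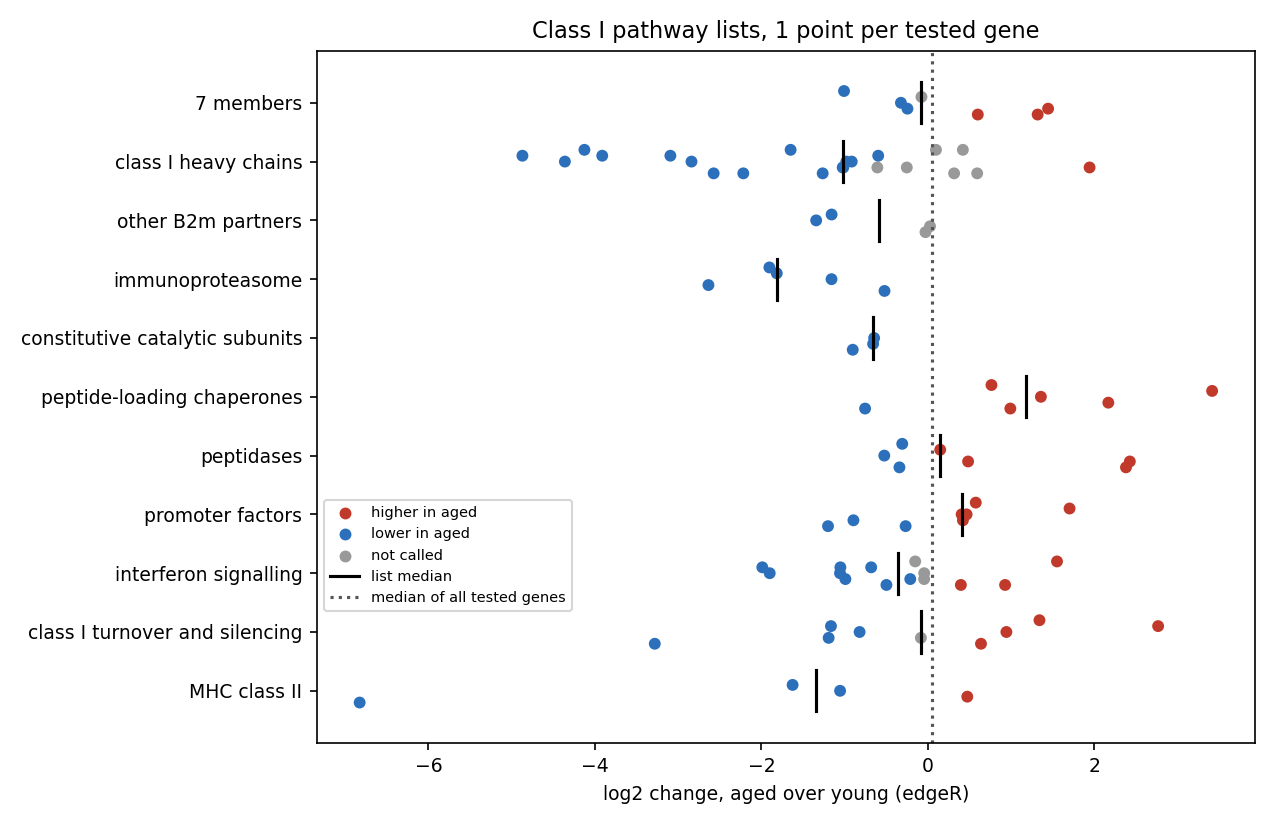
Log2 change (aged over young, edgeR) of each tested gene in the 7 members and the 10 pathway lists, with the list median as a bar and the median of all tested genes, 0.05, as a dotted line. All 5 immunoproteasome genes lie below 0 and 5 of 6 chaperones above it; the shift of 0.34 under scaling by library size alone would move every point to the right.

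Class II genes and blood cell markers were examined because marrow cultures can hold blood cells, whose class I genes would add to the counts. Of 11 class II genes in the file 4 were tested, and 3 were lower and 1 higher. Beside the counts in this paragraph stand the shares over all tested genes, 41.8% lower and 44.7% higher. RT1-Bb, a class II β chain, had 0, 6 and 1 counts in aged libraries, against 224, 246 and 271 counts in young ones. As in the heavy chain rows, age and haplotype cannot be told apart in RT1-Bb. Cd74, the invariant chain that class II needs, had 1 or 2 counts in every library. Ciita, the class II transactivator related to NLRC5, had 6, 11 and 3 counts in aged libraries, against 18, 17 and 20 in young ones, 3.09-fold lower (edgeR adjusted p = 0.0065). RT1-DMa was 1.39-fold higher. Myeloid markers, of which 11 of 12 were in the file, summed to 43.6 to 44.7 CPM in aged libraries, against 93.5 to 96.4 CPM in young ones. The pan-leukocyte gene Ptprc had 1 count in a single aged library and 0 in the other 5, and Adgre1, Tyrobp and Aif1 were at 0 in aged libraries and at 1 to 8 counts in each young one. Fcer1g (8, 15 and 18 counts in aged libraries, against 9, 9 and 5 in young ones) and Itgam (8, 10 and 2 counts, against 2, 4 and 1) had higher mean CPM in aged libraries and were too low to test. Of the 4 myeloid markers tested, 3 were lower and 1 higher. Cd14 (21.0 and 80.7 CPM on average in aged and young libraries) made up much of the sum, with Lyz2 (0.173 and 10.4 CPM) and Csf1r (21.8 and 0.321 CPM) differing in opposite directions. Only Cd4 and Cd79a of 8 lymphoid markers were in the file, and they summed to at most 0.0917 CPM in aged and 0.132 CPM in young libraries. The 5 endothelial markers summed to at most 0.678 CPM in aged and 0.471 CPM in young libraries. The 10 stromal markers, all detected, summed to 24192 to 24418 CPM in aged libraries and 46868 to 47557 CPM in young ones. Of these 10, 7 were lower, among them Col1a1 and Col1a2, which make up most of the sum, 2 were higher (Nt5e 4.48-fold and Lepr 4.502-fold), and Eng was not called; scaled by library size alone, Pdgfra turned from lower to higher (log2 change 0.12) and Eng was higher (0.32). What part these differences had in the class I results was not tested, and in such bulk libraries fewer cells of a type and less RNA per cell cannot be told apart.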

How the data were processed

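For the 6 libraries the authors deposited unnormalized counts by gene symbol. Tools listed, with no version, per the submitters' processing notes are fastp, HISAT2 and HTSeq; which genome build, annotation and strand setting were used, and what became of reads with several matches, is not given in the sources used here. RNA was extracted with TRIzol and libraries made with a VAHTS kit, per the labels' protocols. Reads of overlapping genes, and of near-identical RT1 genes, may be shared or lost.

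The test on counts was that of edgeR 4.0.16, under R 4.3.3 (filterByExpr with a minimum count of 10, TMM, quasi-likelihood F test, group as the only term), aged over young, with Benjamini-Hochberg adjustment over all 14273 tested genes and calls at 0.05. The procedure was tested on simulated data. Few genes were changed there, as many up as down, so the simulation does not bear on the choice of scaling. CPM are TMM-scaled and given as mean ± SD. Ratios within a library used a pseudocount of 0.5 and an exact permutation test. Limits from a count of 0 cover counting error only. DESeq2 1.42.0, limma 3.58.1 and other scalings and filters were alternatives.

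The members and lists were chosen with earlier results of these data known. The genes named are all members, up to 2 largest called rises and falls of each list, the catalytic proteasome subunits, Irf1, Rfx5, Ciita and Cd74, and 2 nearest profiles per member (candidates averaged 1 CPM or more). A gene that the rule also names is not reported here. Other genes named (Calr, Pdia3, Psme1, Cd1d1, Mr1, RT1-M3-1, the RT1-A rows, RT1-T24-1 and the markers) were chosen after their values were seen. Class I rows were taken by RT1 symbol; loci known only by a placeholder were not used. Of the 21026 symbols, 19087 match a current RefSeq symbol of GRCr8. Per-length levels were not computed, so levels are not compared between genes.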

Additional observations from a re-analysis of the deposited data

How the results depend on the processing

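Over 14 alternatives (other scalings, filters and tests, the replicate block and leaving out each library), B2m, Erap1, Nlrc5 and Tapbpl kept their direction and call. Scaling by library size alone reversed Tap1 to 0.090, Tap2 to 0.012 and Tapbp to 0.26 on the log2 scale, and changed counts to 2 heavy chains higher, 1 other B2m partner higher, 1 peptidase lower and 6 interferon signalling genes higher. With no low-count filter 3 heavy chains were higher, and with a minimum count of 30 only 1 class II gene was lower. Leaving out single libraries gave 1 to 2 heavy chains higher, and a log2 change of Tapbp from -0.14 to -0.053. Without RT1-CE16 the log2 change of the heavy chain sum was -1.56 instead of -2.52. The labels do not say whether the replicate numbers pair the libraries. Same-numbered deviations correlated at -0.0146, 0.000325 and 0.0264 over 12025 genes, and unlike-numbered ones at -0.0281 to 0.0280. No pairing by number was seen, but with 3 libraries per group a weak one could be missed. With the replicate block, 6279 genes were higher and 5883 lower, against 6375 and 5964 without it, no member changed its call (B2m 0.61, Tap1 -0.25, Tapbpl -1.01), and the exact sign-flip test of the ratios over pairs cannot go below p = 0.25. Depth limits Nlrc5 most, with 21 to 116 counts per library.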
